A study of Mus musculus with 24 samples.

Results

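The step from the combined pro-B and pre-B sort to immature B cells was followed in the bone marrow of mice whose B lineage carried both Vhl alleles flanked by lox sites. The comparison rests on 8 of the 24 libraries of the series, 4 from immature and 4 from proBpreB cells, 1 of each from each of 4 mice, and covers the 12850 genes that passed a filter on low counts. The immature flox/flox libraries and the proBpreB flox/flox libraries, as labelled, came from mice with VHL flox/flox and 1 copy of the recombinase, MB1 Cre +/WT. The same step is given for immature flox/WT and proBpreB flox/WT libraries of 4 other mice that carried 1 floxed Vhl allele and the same recombinase, so no group lacked Cre. The mature flox/flox and flox/WT libraries of the same mice entered the fit and are shown only for hypoxia genes. Mb1-Cre is named after mb1, another name of Cd79a, a gene of B lineage cells. Neither the surface markers of the sorts nor the ages of the mice are stated in the labels.

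Vhl encodes the substrate-binding subunit of a ubiquitin ligase. It marks the alpha subunits of hypoxia-inducible factor (HIF) for destruction when oxygen is present, after prolyl hydroxylases of the Egln family have modified them. B cell development in marrow passes from pro-B and pre-B cells, which rearrange immunoglobulin genes, use the surrogate light chain and divide in response to interleukin-7, to immature cells that carry a complete B cell receptor and have largely left the cell cycle.

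Vhl itself, on chromosome 6 at 113623994 to 113631634 (GRCm38), was low in all 8 libraries. It had 6.80, 3.07, 4.29 and 8.16 CPM (counts scaled to TMM-adjusted library size) in immature flox/flox libraries 1 to 4, against 7.97, 15.1, 9.26 and 8.25 CPM in proBpreB flox/flox libraries 1 to 4. The groups overlapped, and the value was lower in immature cells of 4 of 4 mice. The log2 change was -0.84 (SE 0.25, adjusted p = 0.00665), and -0.44 (adjusted p = 0.106) without flox/flox replicate 2. In flox/WT mice Vhl averaged 35.5 CPM in immature and 25.3 CPM in proBpreB cells, and the labels do not place the lox sites, so a count that sums all exons says little of the floxed stretch by itself. Totals lay between 7850186 and 8894841 counts in immature and between 9367955 and 9902994 counts in proBpreB flox/flox libraries, with 14089 to 14373 and 14759 to 15227 genes detected. A count of 3 corresponded to 0.303 to 0.382 CPM in these libraries.

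Most measured genes differed between the populations. Of 12850 genes, 3743 (29.1%) were higher and 3591 (27.9%) lower in immature than in proBpreB flox/flox cells, or 57.1% in either direction, by edgeR's quasi-likelihood test with Benjamini-Hochberg adjustment. Large falls outnumbered large rises. A log2 change of at least 3 was reached by 118 genes that rose, against 429 genes that fell, while the median over all genes was 0.016. No floor on level was set for these counts, so genes near 0 in 1 population entered them. Efhd1, for example, fell from a mean of 1.99 CPM in proBpreB to 0 CPM in immature flox/flox cells. Cntn2 rose from 0 to 1.24 CPM. In these bulk libraries fewer cells of a type and less RNA per cell cannot be told apart. Libraries of the groups did not overlap for 3536 higher genes (27.5%) and 3504 lower genes (27.3%). In flox/WT mice 3241 genes were higher (25.2%) and 3347 lower (26.0%, 51.3% in either direction). Of the genes higher in flox/flox mice, 2503 were higher in flox/WT mice as well, which is 66.9% of the flox/flox and 77.2% of the flox/WT calls. Of the lower genes 2498 were shared, 69.6% of the flox/flox and 74.6% of the flox/WT calls. Opposite calls were few, with 43 genes higher in flox/flox and lower in flox/WT mice and 44 the other way round.

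**Figure D1:**
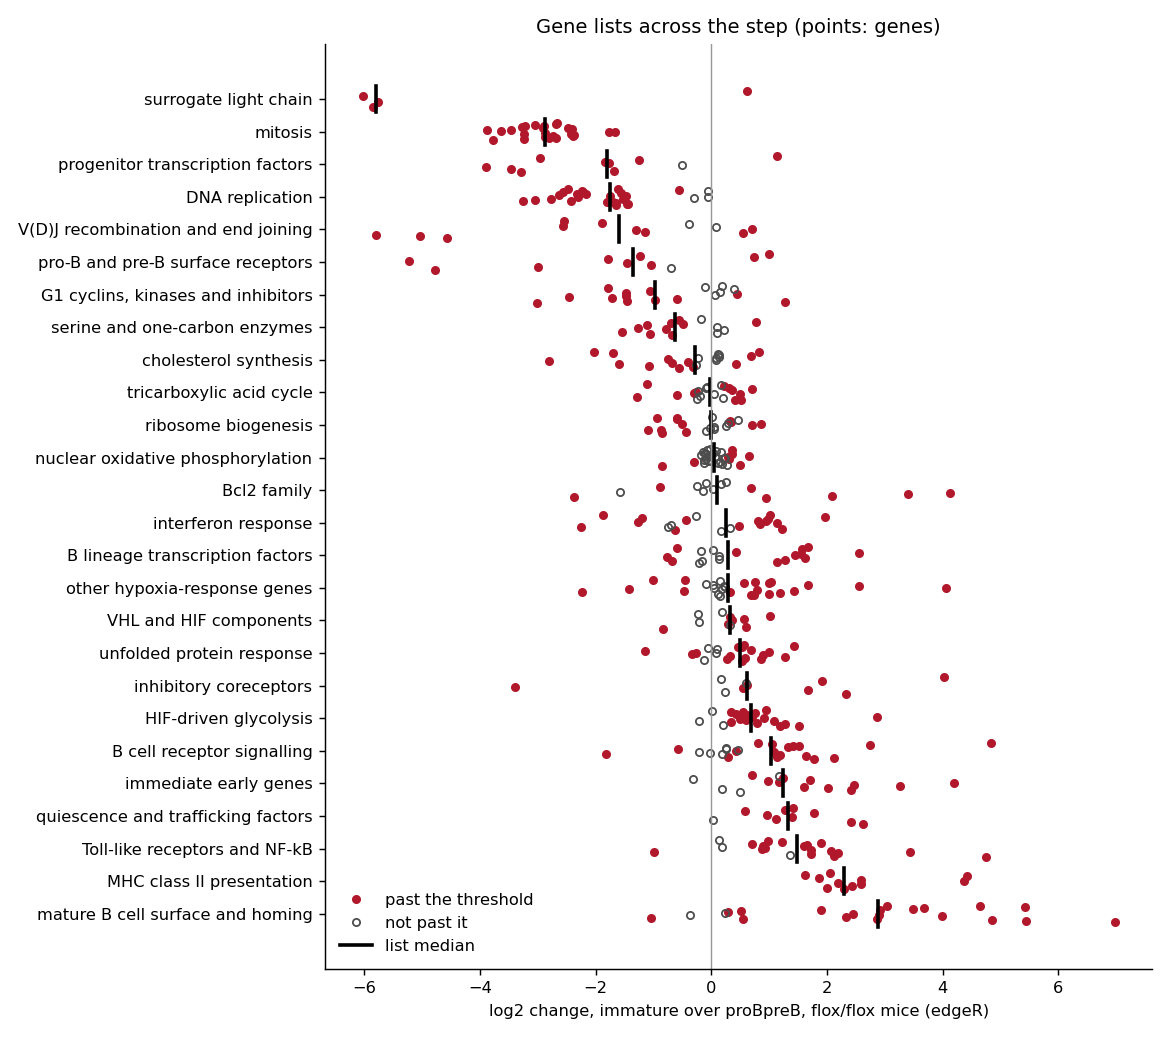
Log2 change between immature and proBpreB flox/flox cells (edgeR estimate, horizontal axis) for each tested member of 26 gene lists, with filled points past the threshold and a bar at the list median. Mitosis genes lie between -3.88 and -1.67, while MHC class II genes lie between 1.62 and 4.42.

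The genes with the largest falls included those of the pre-B cell receptor and of V(D)J recombination. Igll1, the lambda5 chain of the surrogate light chain (chromosome 16 at 16860671 to 16863985), had 9.06, 12.1, 6.44 and 16.6 CPM in immature flox/flox libraries, against 686, 608, 502 and 657 CPM in proBpreB flox/flox libraries. Every immature library was far below every proBpreB library (log2 change -5.84, SE 0.29, adjusted p = 7.87e-12). Vpreb1, its partner chain, had 4.66, 7.95, 5.96 and 14.4 CPM in immature cells, against 479.8, 409, 358 and 459.8 CPM in proBpreB cells. Vpreb2 changed by -6.03, and as a near-identical copy of Vpreb1 its share of reads is uncertain. Of the 4 genes of this list 3 fell (75%, against 27.9% of all genes) and 1 rose (25%, against 29.1%), with a median of -5.80.

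The one that rose was Vpreb3, a VpreB family member. It measured 1305, 1017, 925 and 960.0 CPM in immature flox/flox cells, against 740.4, 663, 664 and 672 CPM in proBpreB flox/flox cells, with no overlap (log2 change 0.61, SE 0.11, adjusted p = 0.000102). In flox/WT mice it went the other way, with means of 467 CPM in immature and 911 CPM in proBpreB cells (-0.99, adjusted p = 2.30e-07). The difference between the changes, flox/flox minus flox/WT, was 1.60 (adjusted p = 2.70e-06), the highest member of a list whose other members did not differ between genotypes past the threshold.

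Of 12 recombination genes, 8 fell (66.7%, against 27.9% of all genes) and 2 rose (16.7%, against 29.1%), with a median of -1.59. Dntt, the template-free polymerase that adds junctional nucleotides, had 12.0, 8.79, 9.30 and 9.41 CPM in immature cells, against 769.8, 509, 436 and 506 CPM in proBpreB cells. Rag1, a subunit of the recombinase, had 3.33, 7.95, 11.9 and 10.2 CPM in immature cells, against 197, 155, 217 and 202 CPM in proBpreB cells. The libraries of the populations were far apart for both genes. Rag2 fell by 5.03 on the log2 scale, the end-binding Ku70 gene Xrcc6 by 2.56 and the DNA-bending cofactor Hmgb2 by 2.55. The repair genes Prkdc, the kinase of end joining, and Xrcc4, which stabilises the ligase, rose by 0.71 and 0.55, with overlapping libraries. Xrcc4 no longer passed when flox/flox replicate 2 (0.50, adjusted p = 0.0695) or 4 (0.42, adjusted p = 0.119) was left out. The end-joining genes Nhej1 (-0.38, adjusted p = 0.158) and Xrcc5 (0.08, adjusted p = 0.685) did not pass, and Xrcc5 was at -0.10 without flox/flox replicate 3.

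**Figure D2:**
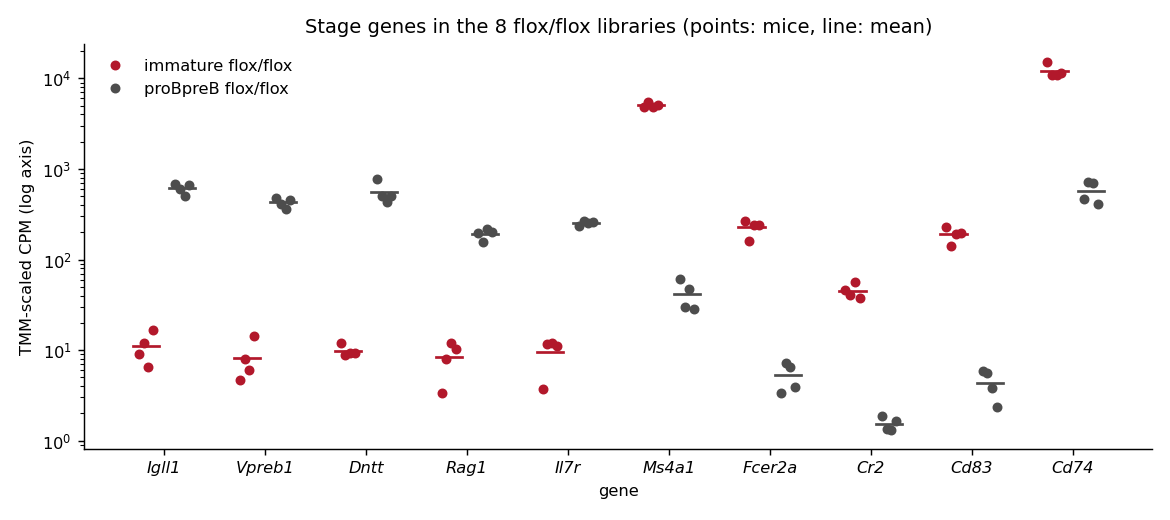
TMM-scaled CPM (log axis) of 10 stage genes in immature (left of each pair) and proBpreB (right) flox/flox libraries, with a point for each mouse and a line at the mean. The first 5 genes are lower and the last 5 higher in every immature library than in any proBpreB library.

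Receptors of early B cells followed the same course. Il7r, the interleukin-7 receptor, had 3.73, 11.7, 11.9 and 11.2 CPM in immature flox/flox cells, against 235, 264, 254 and 259 CPM in proBpreB flox/flox cells (log2 change -4.77, SE 0.25, adjusted p = 3.32e-12). The proBpreB libraries lay close together, and immature replicate 1 was the lowest of the immature ones. Enpep, the aminopeptidase known as BP-1, fell by 5.22 and the cytokine receptor Flt3 by 2.99. The list of 10 held 7 that fell (70%, against 27.9% of all genes) and 2 that rose (20%, against 29.1%), with a median of -1.35. The 2 were Cd24a, a glycosylated surface antigen, at 0.73 and Crlf2, the receptor of thymic stromal lymphopoietin, at 1.01. Kit, the stem cell factor receptor, measured -0.70 (adjusted p = 0.196) and did not pass. Cd93 fell by 1.05 in flox/flox and by 2.08 in flox/WT mice (difference 1.03, adjusted p = 0.0108).

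Transcription factors of progenitors fell in 8 of 10 cases (80%, against 27.9% of all genes) and rose in 1 (10%, against 29.1%), with a median of -1.81. Myb, needed in pro-B cells, had 45.8, 48.7, 61.2 and 64.7 CPM in immature cells, against 586, 599, 624 and 609 CPM in proBpreB cells (log2 change -3.46, SE 0.16, adjusted p = 1.08e-13). Erg changed by -3.89, Lef1, a nuclear partner of beta-catenin, by -3.28 and Sox4 by -1.69. Lef1 fell by 2.17 and Sox4 by 2.50 in flox/WT mice, so the first had a larger and the second a smaller fall in flox/flox mice (differences -1.11, adjusted p = 0.00672, and 0.81, adjusted p = 0.00797). Mef2c rose by 1.14. Myc, the growth regulator, had 49.6, 52.3, 65.2 and 67.8 CPM in immature cells, against 108, 65.2, 75.5 and 86.7 CPM in proBpreB cells. The groups overlapped and the change of -0.51 did not pass (adjusted p = 0.0697), whereas in flox/WT mice Myc rose by 1.15 (adjusted p = 0.000505; difference -1.66, adjusted p = 0.00260).

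Of 18 B lineage factors, 9 rose (50%, against 29.1% of all genes) and 3 fell (16.7%, against 27.9%), with a median of 0.28. The octamer factor Pou2f2 had 110.5, 43.5, 77.4 and 72.1 CPM in immature cells, against 12.3, 12.0, 13.5 and 12.9 CPM in proBpreB cells, and its values spread more widely in the immature libraries without reaching the others. Id3 rose by 1.68, Ikzf3 (Aiolos) by 1.62, Bcl11a by 1.56 and Pax5, the factor of B cell commitment, by 1.14. Spi1 (PU.1), Spib and Foxo1 rose by 1.54, 1.45 and 1.28 in flox/flox and by 0.94, 0.84 and 0.56 in flox/WT mice (differences 0.61, 0.60 and 0.71, with adjusted p = 0.00254, 0.00494 and 0.00127). Irf4 and Tcf3 (E2A) fell by 0.76 and 0.68. Ebf1, the early B cell factor, measured -0.22 and did not pass (adjusted p = 0.0772).

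Not all of the largest falls were genes of B cell development. Drc7, which encodes a subunit of the dynein regulatory complex of motile cilia, had the largest fall among genes above the level floor (mean log2 CPM of at least 2), with 0.400, 0.419, 0.119 and 0.627 CPM in immature cells, against 41.2, 40.0, 34.4 and 40.2 CPM in proBpreB cells (log2 change -6.61, SE 0.38, adjusted p = 2.15e-12). Its immature values lay near or below the level of 3 counts. The sodium channel subunit gene Scn4b, Arpp21, Emp1, Myl10, the ATP-gated channel gene P2rx3, the sodium chloride cotransporter gene Slc12a3 and Mmrn1 had log2 changes between -5.62 and -5.26. Their means were 0.550 to 1.17 CPM in immature and 24.3 to 54.6 CPM in proBpreB cells. For none of these 8 genes did the change differ between genotypes past the threshold, with adjusted p from 0.314 to 0.995.

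The largest rise above the same floor was that of Ms4a1, which encodes CD20 (chromosome 19 at 11249679 to 11266149). It had 4848, 5442, 4867 and 5026 CPM in immature flox/flox cells, against 60.5, 30.3, 47.5 and 28.1 CPM in proBpreB flox/flox cells. The log2 change of 6.98 (SE 0.21, adjusted p = 5.01e-16) exceeded that of 5.17 in flox/WT mice, with a difference of 1.81 (adjusted p = 5.15e-05). Immature cells of the genotypes had close means (flox/flox 5045 CPM, flox/WT 5097 CPM), while proBpreB cells did not (flox/flox 41.6 CPM, flox/WT 143 CPM). Fcer2a, the low-affinity IgE receptor CD23, had 269, 161, 242 and 242 CPM in immature cells, against 3.37, 7.26, 6.48 and 3.94 CPM in proBpreB cells. Other genes among the 12 largest rises were Cd83, an activation antigen (5.43), the complement receptor Cr2 (4.85), the adaptor Bank1 (4.84), Toll-like receptor gene Tlr1 (4.75), the IgM receptor Fcmr (4.65), the secreted ligand Wnt10a (5.64), the fatty acid desaturase Scd1 (5.00), Shisa8 (5.53), Pxdc1 (5.42) and Hepacam2 (4.95).

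Mature B cell surface and homing genes rose in 18 of 21 cases (85.7%, against 29.1% of all genes). In this list 1 fell (4.76%, against 27.9%), and the median was 2.89. Cxcr5, the receptor that guides B cells to follicles, rose by 3.98, the costimulatory receptor Cd40 by 3.68, the egress receptor S1pr1 by 2.89 and Ccr7 by 2.33. Cxcr4, the receptor of a marrow-retaining chemokine, had 50.5, 68.4, 58.9 and 58.3 CPM in immature flox/flox cells, against 68.5, 80.7, 76.0 and 80.4 CPM in proBpreB flox/flox cells. Its change of -0.38 did not pass (adjusted p = 0.0736), against -1.58 in flox/WT mice (difference 1.20, adjusted p = 0.00265).

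All 11 genes of MHC class II presentation rose, against 29.1% of all genes, with a median of 2.30 in flox/flox and 2.76 in flox/WT mice. Cd74, the invariant chain, had 15019, 10774, 10919 and 11404 CPM in immature flox/flox cells, against 463, 722, 693 and 411 CPM in proBpreB flox/flox cells (log2 change 4.42, SE 0.18, adjusted p = 2.08e-14). The class II chain gene H2-Eb1 (chromosome 17 at 34305867 to 34316674) had 392, 307, 281 and 293 CPM in immature cells, against 44.2, 82.5, 71.0 and 42.7 CPM in proBpreB cells. No immature library overlapped with a proBpreB library for either gene. H2-Eb1 rose by 2.43 in flox/flox and 3.56 in flox/WT mice (difference -1.12, adjusted p = 0.00253), and H2-Aa by 2.30 and 3.22 (difference -0.92, adjusted p = 0.00617). Ciita, the class II transactivator, rose by 1.62, and H2-DMb2, a peptide-loading chain, by 4.37. For Cd74 and H2-DMb2 the changes did not differ between genotypes past the threshold, with differences of 0.14 and 0.09 (SE 0.22 and 0.21; adjusted p = 0.758 and 0.844).

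The promoters of H2-Eb1 and H2-Aa are shown as examples of class II chain genes that rose together. The 250 bases before each gene's start, from RefSeq (GRCm38.p6), run 5′ to 3′ on the gene's strand, and capitals mark the letters CCAAT or their reverse complement ATTGG, the core of the Y box.
H2-Eb1, chr17:34305617-34305866, plus strand: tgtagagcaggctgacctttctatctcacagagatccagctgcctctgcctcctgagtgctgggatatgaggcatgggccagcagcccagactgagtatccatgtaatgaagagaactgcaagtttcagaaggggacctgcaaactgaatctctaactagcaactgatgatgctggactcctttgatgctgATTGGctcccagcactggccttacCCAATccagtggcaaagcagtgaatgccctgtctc
H2-Aa, chr17:34287824-34288073, minus strand: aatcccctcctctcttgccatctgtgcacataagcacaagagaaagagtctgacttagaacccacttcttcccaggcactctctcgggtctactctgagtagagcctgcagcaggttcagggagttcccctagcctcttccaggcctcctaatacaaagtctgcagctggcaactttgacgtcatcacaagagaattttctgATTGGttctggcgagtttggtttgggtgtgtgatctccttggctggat
The letters lay 59 and 35 bases before the start of H2-Eb1 and 48 bases before that of H2-Aa. They were found in 6 of the 8 class II list members with a promoter in the table (75%), in 9314 of 27025 promoters of all genes (34.5%) and in 36.8% of the promoters of tested genes, searched on both strands. A match of letters describes the sequence and is not a measured site.

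Genes of B cell receptor signalling rose in 15 of 23 cases (65.2%, against 29.1% of all genes). In this list 2 fell (8.7%, against 27.9%), and the median was 1.04. Cd79b, a signalling chain of the receptor, had 4678, 3879, 3914 and 3640 CPM in immature flox/flox cells, against 966, 902, 946 and 889.8 CPM in proBpreB flox/flox cells (log2 change 2.12, SE 0.10, adjusted p = 1.02e-13). Cd79a rose by 1.78, and the labels do not say where the recombinase sits relative to this gene. Rasgrp3, an activator of Ras, rose by 2.74 and the kinase Lyn by 1.63. Cd79b and Lyn rose less in flox/WT mice, by 1.20 and 1.07 (differences 0.92, adjusted p = 0.000138, and 0.56, adjusted p = 0.00643). The 2 that fell were the kinase Fyn (-1.82) and Pik3cd, a phosphoinositide 3-kinase subunit (-0.57). Syk, the kinase next to the receptor, measured 0.19 (adjusted p = 0.281). Of 10 inhibitory coreceptors and phosphatases 6 rose (60%, against 29.1% of all genes) and 1 fell (10%, against 27.9%), with a median of 0.61. Btla rose by 4.02, Cd22, the sialic acid receptor, by 2.33 and the phosphatase Ptpn6 by 1.91, and Lair1, also listed as a marker of plasmacytoid dendritic cells, fell by 3.39.

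Cell cycle genes fell together, and more than in mice with 1 floxed allele. All 25 mitosis genes fell in flox/flox mice (median -2.88), and 23 of 25 in flox/WT mice (median -1.05), against 27.9% and 26.0% of all genes. For 24 of the 25 the fall was larger in flox/flox mice by the test of the difference, against 6.77% of all genes with a lower difference. The exception was Cenpa, a centromeric histone, at -1.77 in flox/flox and -1.53 in flox/WT mice (difference -0.24, adjusted p = 0.362). Kif11, a spindle motor, had 36.8, 20.9, 38.9 and 39.8 CPM in immature flox/flox cells, against 367, 345, 342 and 442 CPM in proBpreB flox/flox cells (log2 change -3.47, SE 0.22, adjusted p = 5.71e-11). Its mean was 159 CPM in immature and 359 CPM in proBpreB flox/WT cells (-1.15; difference -2.32, adjusted p = 3.08e-05). The proBpreB means of the genotypes were close and the immature means were not. Top2a, which untangles chromosomes, showed the same arrangement, with means of 91.7 CPM in immature and 858 CPM in proBpreB flox/flox cells, and 424 and 807 CPM in flox/WT cells. Mki67, the Ki-67 antigen, fell by 3.77 to 29.6 CPM in immature cells, against 387 CPM in proBpreB cells, and the kinetochore genes Cenpf and Cenpe fell by 3.88 and 3.63. The difference for Mki67 (-3.00, adjusted p = 0.0212) lost its call without flox/flox replicate 1 (-2.93, adjusted p = 0.0735), 2 (-2.83, adjusted p = 0.0735) or 4 (-3.07, adjusted p = 0.0586). The call was also lost without flox/WT replicate 3 (-2.39, adjusted p = 0.0530) or 4 (-2.68, adjusted p = 0.0982), and with only the groups compared in the fit (-2.80, adjusted p = 0.0640). Ccnb1 and Ccnb2, the B cyclins, fell by 2.80 and 2.88 and Cdc20, an activator of the anaphase-promoting complex, by 2.89.

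**Figure D3:**
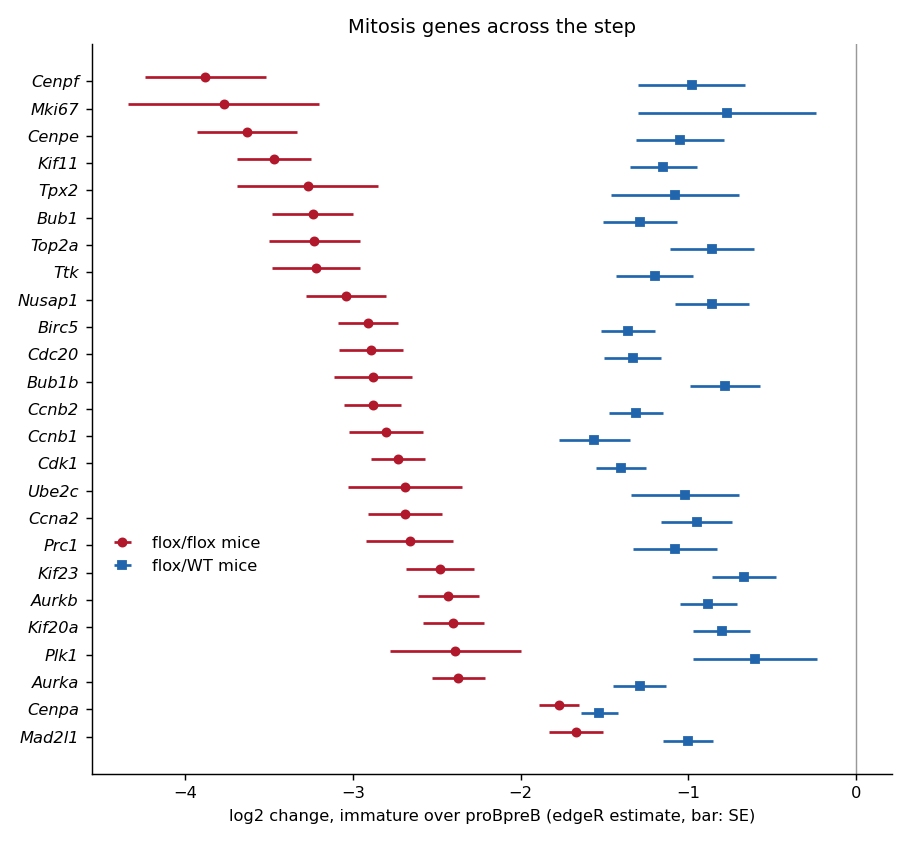
Log2 change between immature and proBpreB cells (edgeR estimate with SE) for the 25 mitosis genes in flox/flox (upper point of each row) and flox/WT mice (lower point). Every flox/flox point lies left of its flox/WT point, by least for Cenpa (difference -0.24).

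The promoters of Ccnb1, Ccnb2 and Cdc20 are shown as examples of mitosis genes that fell together. Capitals mark CCAAT (reverse complement ATTGG), the letters bound by the factor NF-Y, and TTTGAA (reverse complement TTCAAA), the letters of the cell cycle genes homology region. The 250 bases before each start are from RefSeq (GRCm38.p6), 5′ to 3′ on the gene's strand.
Ccnb1, chr13:100786487-100786736, minus strand: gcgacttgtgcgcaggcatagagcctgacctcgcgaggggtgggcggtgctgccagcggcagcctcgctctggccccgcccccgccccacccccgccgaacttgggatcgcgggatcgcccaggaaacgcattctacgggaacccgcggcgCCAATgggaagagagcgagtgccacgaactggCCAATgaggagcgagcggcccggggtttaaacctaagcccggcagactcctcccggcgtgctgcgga
Ccnb2, chr9:70421555-70421804, minus strand: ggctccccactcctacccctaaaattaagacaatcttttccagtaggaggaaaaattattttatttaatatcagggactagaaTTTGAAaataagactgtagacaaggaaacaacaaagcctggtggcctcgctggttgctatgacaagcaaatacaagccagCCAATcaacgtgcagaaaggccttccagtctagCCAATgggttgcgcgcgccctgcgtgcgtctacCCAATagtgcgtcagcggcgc
Cdc20, chr4:118437344-118437593, minus strand: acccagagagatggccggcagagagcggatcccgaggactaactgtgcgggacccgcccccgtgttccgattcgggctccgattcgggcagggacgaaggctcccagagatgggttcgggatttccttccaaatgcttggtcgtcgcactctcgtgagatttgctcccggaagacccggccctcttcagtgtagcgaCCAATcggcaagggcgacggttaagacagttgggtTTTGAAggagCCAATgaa
CCAAT occurred 99 and 67 bases before the start of Ccnb1, 87, 54 and 21 bases before that of Ccnb2, and 53 and 8 bases before that of Cdc20. TTTGAA lay 167 bases before the start of Ccnb2 and 18 bases before that of Cdc20, shared no base with a CCAAT match, and was not among these letters of Ccnb1. On either strand, CCAAT was in 18 of 21 mitosis promoters (85.7%) and TTTGAA in 7 of 21 (33.3%), against 34.5% and 16.3% of all promoters in the table and 36.8% and 10.7% of those of tested genes.

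Of 27 DNA replication genes, 24 fell (88.9%, against 27.9% of all genes) and 0 rose (median -1.75, and -0.65 in flox/WT mice). A lower difference was found for 23 of the 27, against 6.77% of all genes. Mcm10, a replication initiation factor, had 6.00, 3.63, 11.8 and 11.0 CPM in immature flox/flox cells, against 79.2, 70.2, 68.5 and 93.7 CPM in proBpreB flox/flox cells. The groups were far apart (log2 change -3.26, SE 0.30, adjusted p = 2.59e-08; difference from flox/WT -2.38, adjusted p = 0.000522). Gins1, part of the replicative helicase, changed by -3.05, the ribonucleotide reductase subunit Rrm2 by -2.64 and the sliding clamp Pcna by -1.75. Of the 3 that did not pass, Pold1, a DNA polymerase subunit, measured -0.06 (adjusted p = 0.639) and Gins4 -0.30 (adjusted p = 0.0549).

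Regulators of the G1 phase were divided. Of 17, 10 fell (58.8%, against 27.9% of all genes) and 2 rose (11.8%, against 29.1%), with a median of -0.98. Ccnd3, the cyclin of dividing pre-B cells, had 490.2, 400.0, 433 and 485 CPM in immature flox/flox cells, against 1493, 1157, 1011 and 1333 CPM in proBpreB flox/flox cells, and its change of -1.45 was near that of -1.34 in flox/WT mice (difference -0.11, SE 0.20, adjusted p = 0.796). Ccnd2, another D cyclin, had 271, 223, 262 and 241 CPM in immature flox/flox cells, against 119.9, 86.0, 103 and 103 CPM in proBpreB flox/flox cells. It rose in both genotypes, by 1.28 in flox/flox and 3.09 in flox/WT mice (difference -1.81, adjusted p = 1.70e-05). Ccnd1 changed by -3.01 and the kinase inhibitor Cdkn2c by -1.78, and the other gene that rose was Rb1, the retinoblastoma protein, at 0.44.

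Quiescence and trafficking factors rose in 9 of 10 cases (90%, against 29.1% of all genes) and fell in 0. Their median was 1.33, and 0.75 in flox/WT mice. Klf2, which keeps lymphocytes at rest and controls their homing, had 911, 798, 745 and 724 CPM in immature flox/flox cells, against 114, 146, 139.6 and 118 CPM in proBpreB flox/flox cells (log2 change 2.63, SE 0.13, adjusted p = 8.82e-14). Its flox/WT change was 1.63 (difference 1.00, adjusted p = 0.000367). Btg1, an antiproliferative gene, rose by 1.77 in flox/flox and 1.02 in flox/WT mice (difference 0.75, adjusted p = 0.000930), and Klf3 by 2.41 and 2.06. Of the 10, 6 had a higher difference, against 5.36% of all genes.

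Among survival genes of the Bcl2 family, 5 of 14 tested members rose (35.7%, against 29.1% of all genes) and 2 fell (14.3%, against 27.9%), with a median of 0.10. Mcl1, an inhibitor of cell death, had 1639, 1614, 1581 and 1577 CPM in immature cells, against 382, 374, 386 and 363 CPM in proBpreB cells, and the libraries within each population lay close together (log2 change 2.09, SE 0.09, adjusted p = 3.38e-14). Bcl2l1, which encodes the inhibitor Bcl-xL, had 30.1, 26.1, 28.8 and 31.0 CPM in immature cells, against 159, 145, 148 and 152 CPM in proBpreB cells (-2.38). Bcl2 rose by 0.95 in flox/flox and 2.72 in flox/WT mice (difference -1.77, adjusted p = 1.70e-05), with immature means of 37.1 and 93.3 CPM and proBpreB means of 18.9 and 14.2 CPM. Bcl2l11, which encodes the pro-apoptotic Bim, rose by 0.68 in flox/flox mice and measured -0.10 (adjusted p = 0.533) in flox/WT mice (difference 0.78, adjusted p = 0.00558). Bcl2a1b and Bcl2a1d, near-identical copies whose reads may be split or shared, rose by 3.40 and 4.13.

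HIF-driven glycolysis genes rose in both genotypes. Of 21 genes of HIF-driven glycolysis, 18 rose (85.7%, against 29.1% of all genes) and 0 fell in flox/flox mice (median 0.68). The flox/WT median was 0.75 with 18 higher and 1 lower, where 25.2% and 26.0% of all genes were. A higher difference was found for 3 and a lower one for 3, against 5.36% and 6.77% of all genes. Levels were unlike, with mean sums over the list of 33086 CPM in immature and 21236 CPM in proBpreB flox/flox libraries. In flox/WT libraries these sums were 4045 and 2482 CPM. Slc2a3, a glucose transporter, had 214, 243, 232 and 255 CPM in immature flox/flox cells, against 82.1, 83.9, 83.3 and 80.0 CPM in proBpreB flox/flox cells (log2 change 1.52, SE 0.10, adjusted p = 1.14e-11; difference 0.74, adjusted p = 0.000992). Hexokinase gene Hk2 rose by 1.27, the phosphofructokinase Pfkp by 1.09, the lactate exporter Slc16a3 by 0.95 and lactate dehydrogenase Ldha by 0.35, each with a change in flox/WT mice within 0.31 of it. The 3 genes that did not pass were Pfkm (-0.22, adjusted p = 0.445), Pdk1 (0.01, adjusted p = 0.929), the sign of which turned under other settings, and Hk1 (0.20, adjusted p = 0.214).

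Aldoc, the aldolase of brain and other tissues (chromosome 11 at 78323073 to 78327781), stood apart from the rest of the glycolysis list. It had 371, 347, 339 and 357 CPM in immature flox/flox cells, against 54.9, 48.4, 45.7 and 44.7 CPM in proBpreB flox/flox cells (log2 change 2.87, SE 0.13, adjusted p = 3.22e-14). In flox/WT mice the means were 3.06 CPM in immature and 2.04 CPM in proBpreB cells (0.63; difference 2.24, adjusted p = 4.95e-06). From proBpreB through immature to mature cells the flox/flox means were 48.5, 353 and 363 CPM, so the level of mature cells was near that of immature cells.

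Other hypoxia-response genes rose in 14 of 28 cases (50%, against 29.1% of all genes) and fell in 5 (17.9%, against 27.9%), with a median of 0.28. In flox/WT mice their median was -0.19, with 10 higher and 9 lower, where 25.2% of all genes were higher and 26.0% lower. Mean sums over the list were 5968 CPM in immature and 4306 CPM in proBpreB flox/flox libraries, against 774 and 719.7 CPM in flox/WT libraries. Adm, the vasoactive peptide adrenomedullin, had 54.0, 44.5, 34.5 and 41.8 CPM in immature cells, against 2.44, 3.28, 2.78 and 1.93 CPM in proBpreB cells, and rose by 4.06 in flox/flox and 3.93 in flox/WT mice. Bhlhe40, a circadian repressor, rose by 2.55 in flox/flox and 4.06 in flox/WT mice (difference -1.51, adjusted p = 3.59e-05). Mgarp, a mitochondrial transport adaptor, rose by 1.68 and Ankrd37 by 1.43. The genes that fell included Car9, a carbonic anhydrase (-2.24), P4ha2, a collagen hydroxylase (-1.42), and the histone demethylase Kdm3a (-0.48).

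Some hypoxia genes that fell across the step in flox/WT mice had no such call in flox/flox mice. Vegfa, the vascular growth factor, had 101, 96.1, 104 and 94.7 CPM in immature flox/flox cells, against 104, 87.0, 87.3 and 88.4 CPM in proBpreB flox/flox cells. These groups overlapped (log2 change 0.11, SE 0.20, adjusted p = 0.656), whereas the flox/WT means were 2.15 CPM in immature and 17.4 CPM in proBpreB cells (-3.00; difference 3.11, adjusted p = 1.17e-05). Bnip3, a mitophagy receptor, had 1235, 1349, 1086 and 1303 CPM in immature flox/flox cells, against 1067, 1154, 1100 and 1185 CPM in proBpreB flox/flox cells (0.14, adjusted p = 0.323), and fell by 1.18 in flox/WT mice (difference 1.33, adjusted p = 4.93e-05). Ndrg1, a stress-response gene, was not called lower in flox/WT mice (-0.35, adjusted p = 0.0651) and rose by 1.18 in flox/flox mice (difference 1.53, adjusted p = 5.91e-05).

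**Figure D4:**
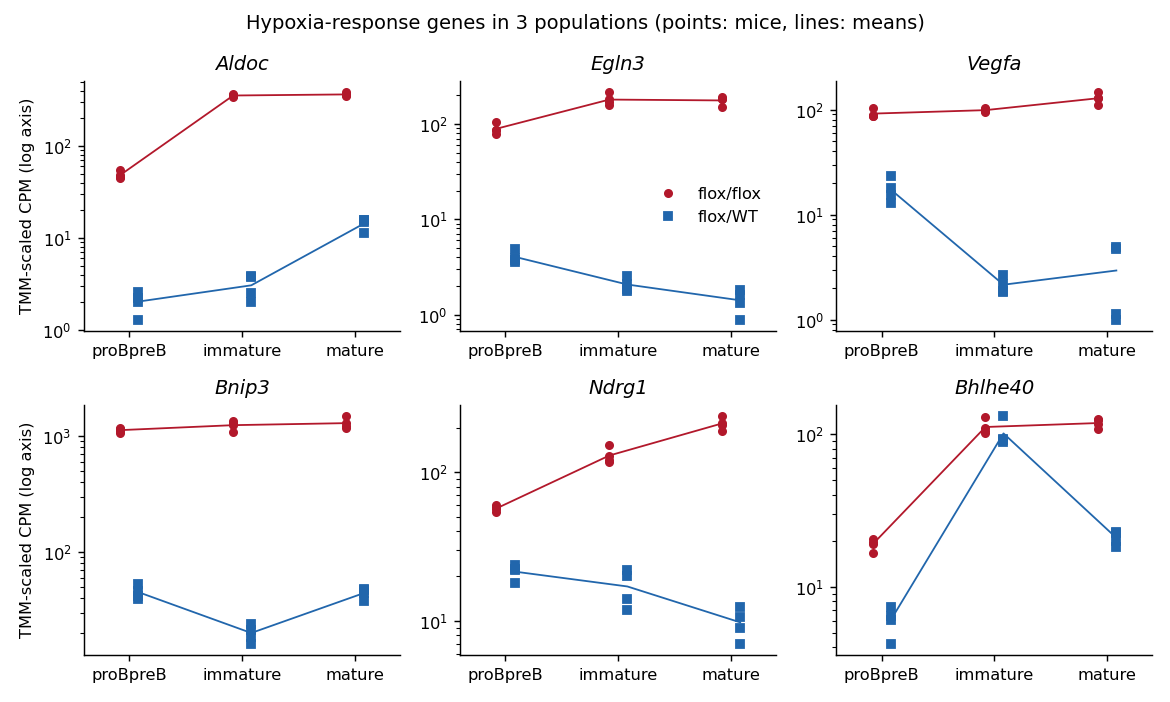
TMM-scaled CPM (log axis) of 6 hypoxia-response genes in proBpreB, immature and mature cells of flox/flox and flox/WT mice, with a point for each mouse and lines through the means. Vegfa means are 91.8, 99.0 and 128 CPM in flox/flox mice, against 17.4, 2.15 and 2.94 CPM in flox/WT mice, in that order of populations.

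Of the genes of the VHL and HIF machinery, 11 of 13 were tested. Of these, 6 rose (54.5%, against 29.1% of all genes) and 1, Vhl, fell (9.09%, against 27.9%), with a median of 0.32. Without flox/flox replicate 3, 4 passed the threshold in place of 7. The prolyl hydroxylase gene Egln3, itself a HIF target, had 168, 214, 157 and 181 CPM in immature flox/flox cells, against 105, 85.7, 79.2 and 85.9 CPM in proBpreB flox/flox cells, without overlap. It rose by 1.02 in flox/flox mice and fell by 0.97 in flox/WT mice (difference 1.99, adjusted p = 6.61e-06). Egln1 rose by 0.57 and measured -0.20 (adjusted p = 0.184) in flox/WT mice (difference 0.77, adjusted p = 0.00410). Hif1a, the oxygen-regulated subunit, rose by 0.59 in flox/flox and 0.66 in flox/WT mice (difference -0.07, adjusted p = 0.830).

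The promoters of Hk2 and Ankrd37 are shown as 2 hypoxia genes that rose in both genotypes. Capitals mark ACGTG and its reverse complement CACGT, the core letters of the hypoxia response element, which overlap where the letters CACGTG occur. The 250 bases before each start are from RefSeq (GRCm38.p6), 5′ to 3′ on the gene's strand.
Hk2, chr6:82774455-82774704, minus strand: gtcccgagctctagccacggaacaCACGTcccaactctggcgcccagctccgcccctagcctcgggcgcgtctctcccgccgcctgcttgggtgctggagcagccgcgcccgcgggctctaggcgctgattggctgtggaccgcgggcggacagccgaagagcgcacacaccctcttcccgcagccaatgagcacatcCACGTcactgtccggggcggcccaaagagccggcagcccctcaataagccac
Ankrd37, chr8:45999851-46000100, minus strand: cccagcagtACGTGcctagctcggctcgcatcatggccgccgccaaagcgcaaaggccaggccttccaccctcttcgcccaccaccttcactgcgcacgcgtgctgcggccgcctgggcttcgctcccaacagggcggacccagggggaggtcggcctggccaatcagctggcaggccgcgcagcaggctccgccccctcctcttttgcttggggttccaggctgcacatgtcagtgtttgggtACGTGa
The matches lay 226 and 52 bases before the start of Hk2 and 241 and 6 bases before that of Ankrd37. The letters were present in 8 of 20 glycolysis promoters (40%), 12 of 23 promoters of other hypoxia genes (52.2%) and 7 of 21 mitosis promoters (33.3%), against 16.6% of all promoters in the table and 21.7% of those of tested genes.

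Enzymes of serine and one-carbon metabolism mostly fell in flox/flox mice. Of 14, 9 fell (64.3%, against 27.9% of all genes) and 1 rose (7.14%, against 29.1%), with a median of -0.62. In flox/WT mice 0 were lower and 7 higher (median 0.36). A lower difference was found for 10 of the 14, against 6.77% of all genes. Shmt1, which moves one-carbon units from serine, had 16.1, 11.7, 19.1 and 13.2 CPM in immature flox/flox cells, against 53.9, 35.9, 38.1 and 46.1 CPM in proBpreB flox/flox cells. Its change of -1.54 (SE 0.16, adjusted p = 2.36e-08) compared with 0.19 (adjusted p = 0.301) in flox/WT mice (difference -1.73, adjusted p = 1.92e-05). Mthfd2 and Psat1 fell by 1.28 and 1.05, and the purine enzyme Atic rose by 0.77. Of 20 ribosome biogenesis genes 8 fell (40%, against 27.9% of all genes) and 4 rose (20%, against 29.1%), with a median of -0.00. In flox/WT mice 1 was lower and 12 were higher. A lower difference was found for 10 of these genes, against 6.77% of all genes. Nop58, a nucleolar protein, fell by 1.09 in flox/flox mice and measured -0.28 (adjusted p = 0.0551) in flox/WT mice.

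Of 20 cholesterol synthesis genes, 10 fell (50%, against 27.9% of all genes) and 3 rose (15%, against 29.1%). Their median was -0.29, and 0.01 in flox/WT mice. Sqle, squalene epoxidase, had 6.66, 3.77, 7.15 and 4.14 CPM in immature flox/flox cells, against 35.6, 39.6, 38.1 and 37.6 CPM in proBpreB flox/flox cells (log2 change -2.81, SE 0.23, adjusted p = 6.38e-10). It fell by 0.54 in flox/WT mice (difference -2.27, adjusted p = 4.63e-05). Idi1, an isomerase of the same pathway, fell by 1.60 (difference -1.08, adjusted p = 0.00374). Lists of mitochondrial metabolism had medians near 0. Nuclear genes of oxidative phosphorylation had 6 of 30 higher and 2 lower (median 0.05), from -0.85 for Ndufa4 to 0.65 for Uqcrfs1, with 0 differences between genotypes. Enzymes of the tricarboxylic acid cycle had 7 of 20 higher and 5 lower (median -0.02), with Idh2 lowest at -1.28. The shares of the last list, 35% higher and 25% lower, lay near those of all genes (29.1% and 27.9%), and those of oxidative phosphorylation, 20% and 6.67%, lay below them.

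The steps of the genotypes differed for 1559 genes (12.1%), 689 with a higher (5.36%) and 870 with a lower change (6.77%) in flox/flox mice. Of these, 1053 had log2 changes of the same sign in both genotypes and 506 of opposite signs, whether or not each change passed its own test. The higher count was 431 without flox/flox replicate 1, 419 without flox/flox replicate 4 and 387 without flox/WT replicate 4, where the lower count was 529. Among the 8 smallest adjusted p-values in each direction, Smtnl2 had a mean of 60.7 CPM in immature and 176 CPM in proBpreB flox/flox cells, against 4.39 and 113 CPM in flox/WT cells (difference 3.14). Atp1b1, a sodium pump subunit, fell by 0.51 and 2.17 (difference 1.66). The cytochrome oxidase subunit Cox6a2, also listed as a marker of plasmacytoid dendritic cells, fell by 0.56 and 3.57 (difference 3.00), and the flox/flox fall did not pass without replicate 1 (-0.58, adjusted p = 0.0581) or 3 (-0.46, adjusted p = 0.123) of these mice. Kdm5b, a histone demethylase, had 552, 562, 529 and 646 CPM in immature flox/flox cells, against 177, 199, 224 and 197 CPM in proBpreB flox/flox cells, and rose by 1.52 there against 0.13 (adjusted p = 0.345) in flox/WT mice. Pafah1b3 measured -0.10 in flox/flox mice (adjusted p = 0.407) and fell by 1.42 in flox/WT mice.

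In the other direction stood Casc5 and Esco2, genes of chromosome segregation, with flox/flox changes of -3.23 and -3.46 and flox/WT changes of -1.04 and -1.40. The lymphocyte genes Ptpn22, a phosphatase, and Gimap4, Gimap7 and Gimap3, small GTPases, were also among these genes. Gimap4 had 43.0, 39.1, 41.5 and 43.7 CPM in immature flox/flox cells, against 88.2, 77.2, 77.6 and 67.5 CPM in proBpreB flox/flox cells, and fell by 0.89 there while rising by 1.03 in flox/WT mice (difference -1.92, adjusted p = 6.07e-07). Ptpn22 fell by 0.54 in flox/flox mice and rose by 1.84 in flox/WT mice, and the fall was at -0.40 (adjusted p = 0.0508) without flox/flox replicate 1. Gimap7 rose by 0.67 and 2.42, and Gimap3 measured 0.00 (adjusted p = 0.995), a value whose sign turned under other settings, and rose by 1.79 in flox/WT mice. Reads of the neighbouring and similar Gimap genes may be split or shared.

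Markers of other cells moved with the step as well. The 10 stage markers of proBpreB cells had 9 lower (90%, against 27.9% of all genes) and 0 higher. The 10 of immature and later B cells had 9 higher (90%, against 29.1%) and 1 lower, so the labelled populations carried their own markers. Natural killer cell markers fell in 10 of 10 cases (median -3.98), with a summed level of 34.0 to 44.0 CPM in immature and 236 to 382 CPM in proBpreB flox/flox libraries. Their receptor Ncr1 averaged 0.761 CPM in immature and 26.3 CPM in proBpreB cells. Markers of plasmacytoid dendritic cells fell in 8 of 10 cases (median -3.40, sums 445 to 500.1 and 939 to 1533 CPM), with Siglech at means of 11.1 and 363 CPM. T cell markers fell in 7 of 11 (median -1.17, or -0.83 without flox/flox replicate 3, sums 44.2 to 50.5 and 143 to 209 CPM), with Cd4 at means of 3.32 and 35.6 CPM. The shares that fell in the natural killer, plasmacytoid dendritic and T cell lists were 100%, 80% and 63.6%, against 27.9% of all genes. No member of these 3 lists was at 0 in all 4 libraries of either population.

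Myeloid and erythroid transcripts were higher in immature than in proBpreB flox/flox libraries. Neutrophil and monocyte markers rose in 12 of 13 cases and fell in 1, Ccr2 (-1.33), with a median of 1.62 and sums of 12404 to 16744 CPM in immature and 4363 to 5490 CPM in proBpreB libraries. S100a8 had 3233, 3089, 2255 and 2812 CPM in immature cells, against 877, 860.3, 784 and 684 CPM in proBpreB cells, and Ngp rose by 1.72 and Csf1r by 1.94. Erythroid markers rose in 10 of 12 cases and fell in 0 (median 1.46, sums 6707 to 12633 and 1393 to 2623 CPM), or changed in 6 cases without flox/flox replicate 1. Hba-a1, a globin gene with a near-identical copy, averaged 5343 CPM in immature and 873 CPM in proBpreB cells. Basophil and mast cell markers rose in 4 of 6 cases (sums 34.9 to 209 and 32.0 to 48.6 CPM), or in 1 case without flox/flox replicate 1 or 4. Plasma cell markers had 2 of 6 higher (33.3%, against 29.1% of all genes) and 3 lower (50%, against 27.9%), with Sdc1 at -2.85. Stroma and endothelial markers had 2 of 7 in each direction (28.6%), near the shares of all genes. The median of the stroma and endothelial list was 1.25, or 2.13 without flox/flox replicate 4. In flox/WT mice the sums were 8456 to 9982 CPM in immature and 4154 to 6204 CPM in proBpreB cells for neutrophils and monocytes, and 1716 to 5171 and 1038 to 2289 CPM for erythroid cells. In flox/flox mice the shares that rose in the neutrophil and monocyte, erythroid, and basophil and mast lists were 92.3%, 83.3% and 66.7%. Of all genes 29.1% rose. The part of other cells in the results above was not tested.

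**Figure D5:**
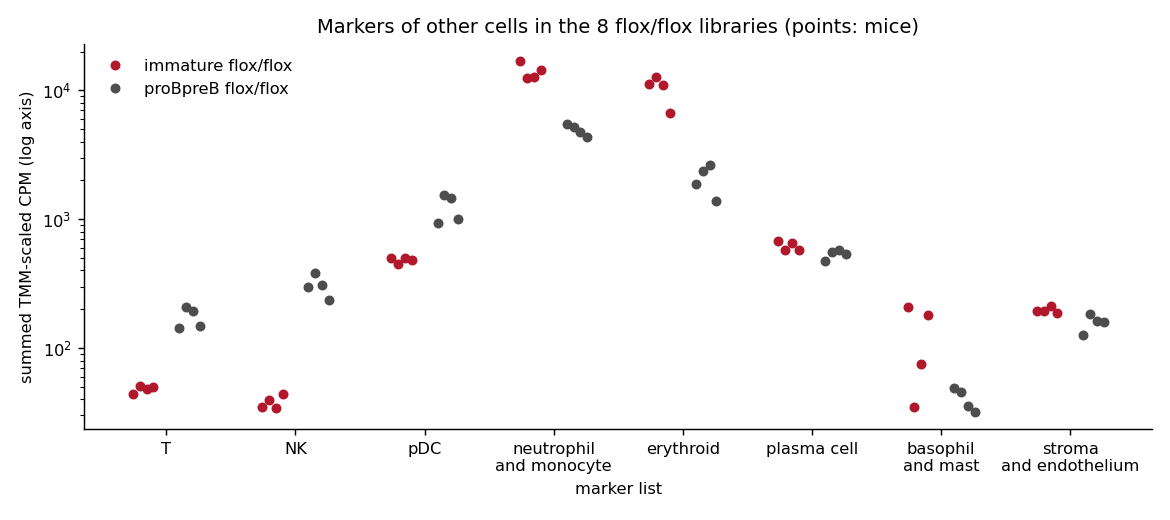
Summed TMM-scaled CPM (log axis) of 8 marker lists of other cells in immature (left of each pair) and proBpreB (right) flox/flox libraries, with a point for each mouse. Natural killer, T and plasmacytoid dendritic sums are lower, and myeloid and erythroid sums higher, in every immature library than in any proBpreB library.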

How the data were processed

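Sorted B cell populations from mouse bone marrow were profiled by RNA-seq, with RNA from cells sorted into lysis buffer and libraries made with a SMARTer low-input kit, per the labels' protocols. Per the submitters' processing notes, HISAT2 and featureCounts were used on build mm10, along with Trim Galore, FastQC, CASAVA and DESeq2. No version, annotation or strand setting is stated there, so reads of overlapping or antisense genes are not separable. The deposited table holds raw counts for 24421 gene symbols, taken here unchanged. 0 columns lacked a sample.

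The test was edgeR's robust quasi-likelihood test (edgeR 4.0.16, R 4.3.3) after TMM scaling and a filterByExpr filter over 6 groups. One fit held 24 libraries of 8 mice, with the mouse as a block and 12 residual degrees of freedom, since the labels give the libraries of a mouse 1 host identity. Same-mouse deviations from group means correlated at 0.0840 to 0.303 over 5000 genes, 6 of 8 were above 0.1 and 8 of 8 were highest with the own mouse. The contrasts were immature minus proBpreB in flox/flox mice, the same in flox/WT mice, and their difference, each adjusted over 12850 genes at a threshold of 0.05. CPM values are TMM-scaled, and SE is the log2 change divided by the square root of F. Replicates are separate mice. Libraries of a group differed by a chi-square per degree of freedom of at least 5.82, so none was counted as a repeat. Floors of 3 counts cover counting error only. On simulated counts for the flox/flox step (12568 genes), 89 of 100 genes changed 2-fold and 99 of 100 changed 4-fold were called, with 12 false calls. Only these 200 genes were changed, no mouse or other population effect was simulated, and each gene's spread was taken from the fit itself. In the real step 57.1% of genes were called, so these figures need not hold for it.

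The members and gene lists were chosen with earlier results of these data known. Lists are described by counts and medians, with no test of a list. Named genes were Vhl, the 12 largest rises and falls past the threshold among non-overlapping genes above a floor of 2 in mean log2 CPM, up to 6 members of each list and up to 3 against its direction, and the 8 smallest p-values of the difference per direction. Not all of the 239 genes so named are printed, some because they are not reported here, and 33 further genes were named after their values were seen, to show members of lists that the rule left out. Positions and promoters came from RefSeq for GRCm38, in which 12172 tested symbols matched. Alternatives were RLE size factors, no filter or 10 CPM in 4 libraries, only the groups compared, no mouse block, DESeq2 1.42.0 and leaving out each mouse.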

Additional observations from a re-analysis of the deposited data

Results flagged for a closer look

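In 23 of 340 groups of 4 libraries (170 named genes in 2 populations), 1 library stood apart from the other 3 by Dixon's criterion. Chance flags about 1 in 20 groups, or 17 of 340, so the number found was near that. In immature flox/flox library 1 these were Hepacam2 at 54.0 CPM, Il7r at 3.73 CPM, Foxo1 at 629 CPM, Cd74 at 15019 CPM, Atp1b1 at 262 CPM, Cd180 at 144 CPM and Egr3 at 14.5 CPM. In immature flox/flox library 2 these were Scn4b at 1.40 CPM and Kif11 at 20.9 CPM. In immature flox/flox library 3 these were Bcl11a at 301 CPM and Spib at 2547 CPM. In immature flox/flox library 4 these were Klf3 at 159 CPM and Ncr1 at 1.63 CPM. In proBpreB flox/flox library 1 these were Emp1 at 36.3 CPM, Slc12a3 at 21.8 CPM, Vpreb3 at 740.4 CPM, Kdm3a at 269 CPM and Vegfa at 104 CPM. In proBpreB flox/flox library 2 this was Xrcc4 at 13.9 CPM. In proBpreB flox/flox library 3 these were Crlf2 at 7.40 CPM and Bcl2a1d at 1.39 CPM. In proBpreB flox/flox library 4 these were Ccnb1 at 320.1 CPM and Ccnb2 at 249.8 CPM. 

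The change across the step differed between genotypes, by the test of the difference in edgeR, for these named genes, given as flox/flox minus flox/WT on the log2 scale. Among early B cell genes the difference was 1.60 for Vpreb3, -0.86 for Hmgb2, 1.03 for Cd93 and -0.85 for Xrcc5. For transcription and quiescence factors it was -1.11 for Lef1, 0.81 for Sox4, -1.66 for Myc, 0.61 for Spi1, 0.60 for Spib, 0.71 for Foxo1, 1.00 for Klf2 and 0.75 for Btg1. In mitosis genes it measured -3.00 for Mki67, -2.38 for Top2a, -2.90 for Cenpf, -2.58 for Cenpe, -2.32 for Kif11, -1.24 for Ccnb1, -1.57 for Ccnb2, -1.55 for Cdc20 and -2.19 for Casc5. Among replication, repair and G1 genes the difference was -2.38 for Mcm10, -1.38 for Gins1, -1.56 for Rrm2, -0.85 for Pcna, -2.06 for Esco2, -1.81 for Ccnd2 and -1.07 for Cdkn2c. For surface and homing genes it was 1.81 for Ms4a1, -0.94 for Cxcr5, 0.78 for Ccr7, 1.15 for Cd40 and 1.20 for Cxcr4. In receptor signalling and antigen presentation genes it measured 0.55 for Cd79a, 0.92 for Cd79b, 0.56 for Lyn, 0.59 for Bank1, -2.38 for Ptpn22, -1.99 for Tlr7, -1.12 for H2-Eb1 and -0.92 for H2-Aa. Among survival and Gimap genes the difference was -1.77 for Bcl2, 0.78 for Bcl2l11, -1.92 for Gimap4, -1.75 for Gimap7 and -1.78 for Gimap3. For genes of oxygen sensing, hypoxia and glycolysis it was -1.30 for Vhl, 1.99 for Egln3, 0.77 for Egln1, 2.24 for Aldoc, 0.74 for Slc2a3, -0.61 for Hk1, -1.51 for Bhlhe40, 1.53 for Ndrg1, 3.11 for Vegfa and 1.33 for Bnip3. In biosynthetic genes it measured -1.73 for Shmt1, -1.03 for Mthfd2, -0.91 for Psat1, -2.27 for Sqle, -1.08 for Idi1, 0.61 for Scd1 and -0.81 for Nop58. Among markers of other cells the difference was 1.19 for S100a8 and 1.06 for Hba-a1. For other genes of the largest rises or differences it was -1.73 for Shisa8, 1.18 for Pxdc1, 0.96 for Hepacam2, 1.66 for Atp1b1, 3.14 for Smtnl2, 3.00 for Cox6a2, 1.39 for Kdm5b and 1.32 for Pafah1b3. 

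The test of the difference lost its call for 10 of these genes under at least 1 alternative. Besides Mki67, adjusted p reached 0.0771 for Shisa8 (without flox/WT replicate 2), 0.0998 for Scd1 (without flox/WT replicate 4), 0.141 for Hepacam2 (without flox/WT replicate 4), 0.0699 for Cd79a (without flox/WT replicate 3), 0.0598 for Cxcr5 (without flox/WT replicate 4), 0.0576 for S100a8 (without flox/WT replicate 3), 0.361 for Hba-a1 (no mouse block), 0.206 for Hk1 (without flox/WT replicate 4) and 0.0511 for Xrcc5 (without flox/WT replicate 4).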

How the results depend on the processing

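Under the alternatives tried, 72 of 76 counts of genes past the threshold stayed within 1.5 times the reported count. For the flox/flox step, 3688 higher and 3500 lower genes were called without the mouse block, 3557 and 3752 with RLE size factors, and 3617 and 3808 with DESeq2. Leaving out 1 mouse gave 3206 to 3359 higher and 3108 to 3261 lower genes. The flox/WT step gave 2733 to 3242 higher and 2914 to 3350 lower genes. For the difference between the steps, leaving out 1 mouse gave 387 to 962 higher and 529 to 1135 lower genes. The pairing by mouse changed 1 call of the flox/flox step among the named genes, Tlr7 (-0.87, adjusted p = 0.0521 without the block), and the difference calls of Hepacam2 and Hba-a1.

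Values near 0 turned sign. Pdk1 was at -0.02 with RLE size factors, with only the groups compared and with DESeq2, at -0.01 with the 10 CPM filter, and between -0.05 and 0.14 when 1 flox/flox mouse was left out. Gimap3 was at -0.03 with RLE size factors, the 10 CPM filter and DESeq2, at -0.01 with only the groups compared, at -0.00 with no filter and without the block, and between -0.15 and 0.16 when 1 flox/flox mouse was left out. For Xrcc5 that range was -0.10 to 0.17. The cause was not tested.

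Genes near the floor of 3 counts, such as Drc7 in immature cells, have fold changes set in part by the prior count. The p-values rest on the spread that remained after the level of each mouse was removed by the block. That spread was estimated over all 24 libraries of 8 mice, with 4 mice per genotype and the mature cells included. Gate markers, lox positions and the strand setting were not given in the sources used here.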

Other observations

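Toll-like receptor and NF-kB genes rose in 16 of 20 cases (80%, against 29.1% of all genes) and fell in 1 (5%, against 27.9%). Their median was 1.49. In flox/WT mice 17 were higher and 0 lower (median 1.13), where 25.2% and 26.0% of all genes were. Tlr9, a receptor of unmethylated DNA, had 21.2, 19.5, 14.7 and 18.7 CPM in immature flox/flox cells, against 1.97, 1.33, 2.50 and 1.10 CPM in proBpreB flox/flox cells (log2 change 3.44, SE 0.25, adjusted p = 8.79e-11). Cd180, a relative of the Toll-like receptors, rose by 2.06 and Nfkb2, an NF-kB subunit, by 1.90, and neither change differed between genotypes past the threshold. Tlr7, a receptor of single-stranded RNA, was the one that fell. It had 6.13, 14.7, 27.3 and 13.4 CPM in immature flox/flox cells, against 22.3, 28.5, 40.5 and 21.5 CPM in proBpreB flox/flox cells. These ranges overlapped, while every mouse had the lower value in its immature cells (-0.99, adjusted p = 0.000615). Without the mouse block the change was -0.87 (adjusted p = 0.0521). In flox/WT mice Tlr7 rose by 1.00 (difference -1.99, adjusted p = 0.000163).

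Immediate early genes rose in 11 of 15 cases (73.3%, against 29.1% of all genes) and fell in 0. Their median was 1.24, or 1.57 without flox/flox replicate 1. Egr1, a factor induced by receptor signals, had 95.1, 83.2, 87.9 and 105 CPM in immature flox/flox cells, against 10.7, 10.0, 8.79 and 9.26 CPM in proBpreB flox/flox cells. It rose by 3.26 in flox/flox and 3.50 in flox/WT mice, and Egr3 by 4.20 and 3.98. Genes of the unfolded protein response rose in 13 of 20 cases (65%, against 29.1% of all genes) and fell in 3 (15%, against 27.9%). The median was 0.50, with Edem1, which helps clear misfolded proteins, at 1.43 and the stress factor Atf4 at -1.15. Interferon response genes were divided, with 9 of 20 higher (45%, against 29.1% of all genes) and 6 lower (30%, against 27.9%). Their median was 0.25, from -2.25 for Mx1 to 1.96 for Rsad2, both known as antiviral genes.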
